A study of Mus musculus with 8 samples.

Results

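The 10 genes described here are Lgr5, Ascl2, Smoc2, Lrig1, Sox9, Axin2, Rnf43, Znrf3, Ephb2 and Ephb3, which mark the crypt stem cell zone of the intestine or are targets of Wnt signalling there. They were taken by symbol, through their Ensembl gene IDs, from a table of 54141 genes, and all 10 were found and passed the filter on low counts. The table comes from RNA-seq of epithelial cells of the mouse distal colon. Degs2_KO libraries (4) came from homozygous Degs2 mutant mice, and WT libraries (4) from wild-type mice, both on the c57bl6/j strain background and with no treatment named. Degs2 is the enzyme that makes phytoceramides from dihydroceramides, and the series asks how its deficiency alters the transcriptome of these cells. Cells had been released from colon pieces in 5 mM EDTA for 30 minutes and passed through a 100 µm strainer, per the labels' protocols. The sources used here do not give age, the part of Degs2 that the allele removes, or whether each library is 1 mouse. The p-values therefore weigh the difference between groups only against the spread between these libraries, which may be partly technical.

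In the colon, epithelial cells are made by stem cells at the base of the crypt and mature as they move up to the surface. Wnt ligands act on Frizzled and Lrp receptors, stop the destruction complex from degrading beta-catenin, and so let beta-catenin switch on target genes together with TCF factors. R-spondins strengthen the signal through Lgr receptors by removing Rnf43 and Znrf3, membrane ubiquitin ligases that otherwise clear Frizzled from the cell surface. Several of these regulators are Wnt targets themselves, which gives the pathway negative feedback.

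Degs2 was at 58.2 ± 9.08 CPM in Degs2_KO and 122 ± 20.1 CPM in WT (SD, n = 4 each), with groups that did not overlap, which is the direction the genotype labels call for. CPM gives the count of a gene relative to the TMM-normalized total of its library. Scaled totals were between 41622927 and 44606092 estimated counts per library. All 9 epithelial defining markers were abundant, with summed levels of 13842 to 15442 CPM in Degs2_KO and 13264 to 16923 CPM in WT. Degs2_KO replicate 3 and WT replicate 1 stood apart from the other 6 libraries on the first principal component, which held 50.3% of the variance, at -59.1 and -53.9 against -1.09 to 43.0. The posterior colon gene Hoxd13 was at 0.31 CPM in that Degs2_KO library and 0.70 CPM in that WT library, against 38.8 to 85.3 CPM in the others. The fold changes of the 10 genes without these 2 libraries are given further on.

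Promoter windows of RefSeq (GRCm38.p6, 250 bases before to 50 after the start) were held for 6 of the 10 genes, in 7 windows, since Rnf43 has a pair. The 250 bases before the start are shown for 1 gene of each role, a feedback gene, a stem cell factor and a positioning receptor, with GC boxes (GGGCGG on either strand) in capitals. They are Axin2 at chr11:108920099-108920348 on the plus strand, Ascl2 at chr7:142969265-142969514 on the minus strand and Ephb3 at chr16:21204545-21204794 on the plus strand.
Axin2: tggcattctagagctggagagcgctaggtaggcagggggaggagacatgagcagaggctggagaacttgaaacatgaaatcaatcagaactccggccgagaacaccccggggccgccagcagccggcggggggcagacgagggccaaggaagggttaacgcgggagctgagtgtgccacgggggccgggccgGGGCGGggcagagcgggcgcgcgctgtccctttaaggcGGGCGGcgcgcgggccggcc
Ascl2: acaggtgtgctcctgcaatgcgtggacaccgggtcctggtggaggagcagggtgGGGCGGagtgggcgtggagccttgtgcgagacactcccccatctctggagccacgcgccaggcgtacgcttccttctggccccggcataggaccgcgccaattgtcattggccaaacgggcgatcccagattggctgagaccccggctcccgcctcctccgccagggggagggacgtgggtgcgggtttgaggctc
Ephb3: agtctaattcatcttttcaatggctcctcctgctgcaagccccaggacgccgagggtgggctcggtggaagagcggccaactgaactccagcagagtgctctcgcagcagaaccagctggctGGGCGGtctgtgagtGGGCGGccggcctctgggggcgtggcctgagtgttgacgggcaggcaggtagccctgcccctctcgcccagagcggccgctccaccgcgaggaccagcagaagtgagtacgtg
The GC box was in 4 of the 7 windows of these genes and in 35.7% of all 32851 windows. The TCF/LEF letters CTTTGAA or CTTTGAT, on either strand, were in 0 of the 7 windows and in 8.65% of all windows. The E-box CAGCTG, a palindrome, was in the Ephb3 window, 1 of 7, and in 16.3% of all windows. The TCF/LEF forms differ in the last letter only, and no motif lies inside another. GC content was 66.7% to 73.0% in the windows of Ephb2, Lrig1, Ascl2, Axin2 and Ephb3, and 46.7% and 44.3% in those of Rnf43, against a median of 52.7% over all windows. A match of letters is a description of these windows and not a bound site.

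None of the 10 genes passed the quasi-likelihood test of edgeR between Degs2_KO and WT. With Benjamini-Hochberg adjustment over 16132 genes the p was 0.9996 for each of them. Among all genes the same test called 0.0%, so a count of 0 of 10 is what the background gives. Degs2 had a log2 fold change of -1.07, an unadjusted p of 4.94e-05 and an adjusted p of 0.796 by edgeR. The test therefore did not call even the targeted gene, whose groups did not overlap. At an unadjusted p under 0.05 the count was also 0 of 10, against 183 genes (1.13%) of all tested. When WT replicate 1 was left out, the background was 782 genes. It was 298 genes with Degs2_KO replicate 1 left out and 292 with Degs2_KO replicate 3 left out, and the count among the 10 genes was 0 in each of these fits. DESeq2 called 2 genes (0.0124%), Degs2 and Dlk1, and 0 of the 10, with 0 of the 10 under the unadjusted threshold (1.33% of all genes). limma-voom called 0 genes (0.0%) and had 0 of the 10 under the unadjusted threshold (1.21%). For none of the 10 did the libraries of Degs2_KO and WT separate, against 168 genes (1.04%) with groups that did not overlap.

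The fitted values lay on both sides of 0. Of the 10 genes 6 were higher and 4 lower in Degs2_KO by their estimate, where 47.4% of all genes were higher. Their median log2 fold change was 0.03, and that of all genes tested -0.0069. The 95% interval included 0 for all 10. It lay within 2-fold for 10 of 10 genes (81.9% of all genes tested) and within 1.5-fold for 7 of 10 (60.4%). The 3 with wider intervals were Lgr5, Ascl2 and Smoc2, so for these stem cell markers a level over 1.5-fold lower in Degs2_KO lay inside the interval, and for Ascl2 also a level over 1.5-fold higher. In bulk RNA, fewer cells of a type and less RNA per cell cannot be told apart.

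**Figure D1:**
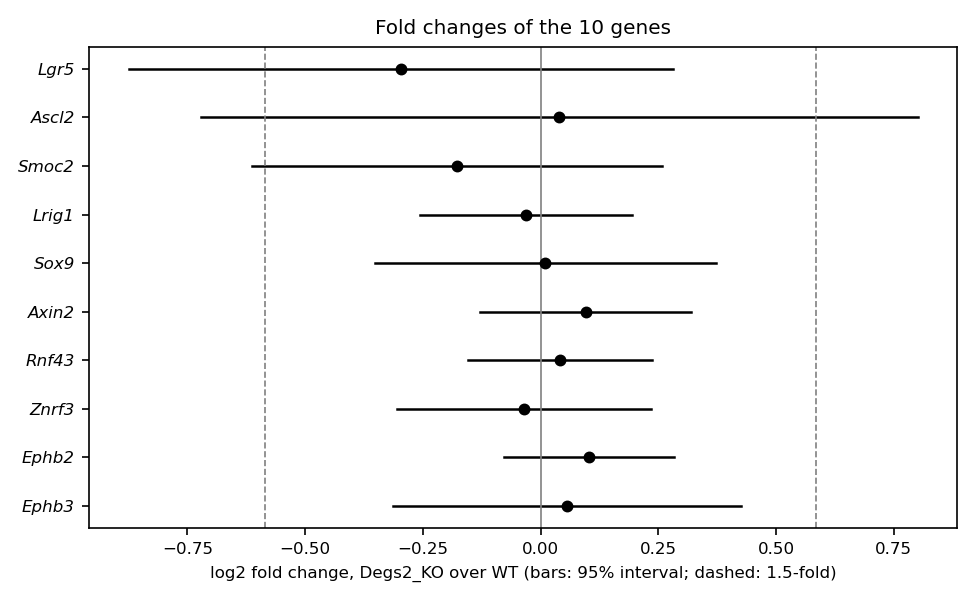
Log2 fold change of each of the 10 genes, Degs2_KO over WT (points), with its 95% interval (bars) from edgeR; dashed lines mark 1.5-fold in either direction. All 10 intervals cross 0, and those of Lgr5, Ascl2 and Smoc2 run past the dashed lines.

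Among the stem cell markers, Lgr5, the R-spondin receptor that marks crypt base stem cells (ENSMUSG00000020140, chr10:115450311-115587780, minus strand, GRCm38), had 7.85, 9.68, 14.2 and 8.87 CPM in Degs2_KO and 12.7, 10.4, 18.0 and 8.80 CPM in WT. The highest library was WT replicate 3 and the lowest Degs2_KO replicate 1, and the groups overlapped. Its log2 fold change was -0.30 ± 0.25 (SE; 95% interval -0.87 to 0.28), with an unadjusted p of 0.274. Without WT replicate 3 that value was -0.07, and without Degs2_KO replicate 3 it was -0.50. The 3 libraries with the most Lgr5 were WT replicates 3 and 1 and Degs2_KO replicate 3. The same 3 had the highest summed levels of 6 enteroendocrine markers, 1 of 14 marker lists. These sums were 83.2, 115, 335 and 119 CPM in Degs2_KO replicates 1 to 4 and 242, 145, 172 and 96.3 CPM in WT replicates 1 to 4. The order within the 3 differed, with Lgr5 highest in WT replicate 3 and these markers in Degs2_KO replicate 3. Tuft cell markers summed to 79.4 CPM in Degs2_KO replicate 3 and 75.6 CPM in WT replicate 1. In WT replicate 3 they were lowest, at 35.8 CPM. The part of these cells in the Lgr5 levels was not tested.

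Ascl2, a Wnt-induced transcription factor of the stem cell state (ENSMUSG00000009248, chr7:142966829-142969264, minus strand), had 2.82, 5.05, 4.41 and 3.32 CPM in Degs2_KO and 5.49, 3.67, 4.27 and 1.74 CPM in WT. Both extremes were WT libraries, replicate 1 at the top and replicate 4 at the bottom. Its log2 fold change was 0.04 ± 0.34 (95% interval -0.72 to 0.80), and this estimate ran from -0.20 without WT replicate 4 to 0.28 without WT replicate 1. Ascl2 was the most thinly covered of the 10, with 69 to 220 fragments per library, where counting alone gives a coefficient of variation of 12.04% at the lowest. Smoc2, a secreted matricellular protein that marks Lgr5-positive cells (ENSMUSG00000023886, chr17:14279506-14404790, plus strand), had 18.5, 25.4, 27.8 and 26.9 CPM in Degs2_KO and 24.7, 35.6, 31.0 and 20.2 CPM in WT. Degs2_KO replicate 1 and WT replicate 4 were the lowest of their groups. The log2 fold change was -0.18 ± 0.19 (95% interval -0.61 to 0.26). It was -0.05 without Degs2_KO replicate 1, -0.04 without WT replicate 2 and -0.30 without WT replicate 4.

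Lrig1, a membrane inhibitor of ErbB receptors found in stem and progenitor cells (ENSMUSG00000030029, chr6:94604529-94700158, minus strand), had 115, 142, 130 and 142 CPM in Degs2_KO and 125, 149, 142 and 123 CPM in WT. Its groups covered nearly the same range, and its log2 fold change was -0.03 ± 0.10 (95% interval -0.26 to 0.19). Lrig1 shares 144 exon bases (2.58% of its exons) with Slc25a26 on the opposite strand, and the sources used here do not say whether fragments were counted by strand. Sox9, a transcription factor of crypt base and progenitor cells (ENSMUSG00000000567, chr11:112782224-112787760, plus strand), had 122, 138, 141 and 152 CPM in Degs2_KO and 119, 184, 138 and 108 CPM in WT. The Degs2_KO libraries lay inside the WT range. Sox9 averaged 138 ± 12.2 CPM in Degs2_KO and 137 ± 33.4 CPM in WT (SD, n = 4 each), and the difference in spread was not tested. Its log2 fold change was 0.01 ± 0.16 (95% interval -0.35 to 0.37).

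**Figure D2:**
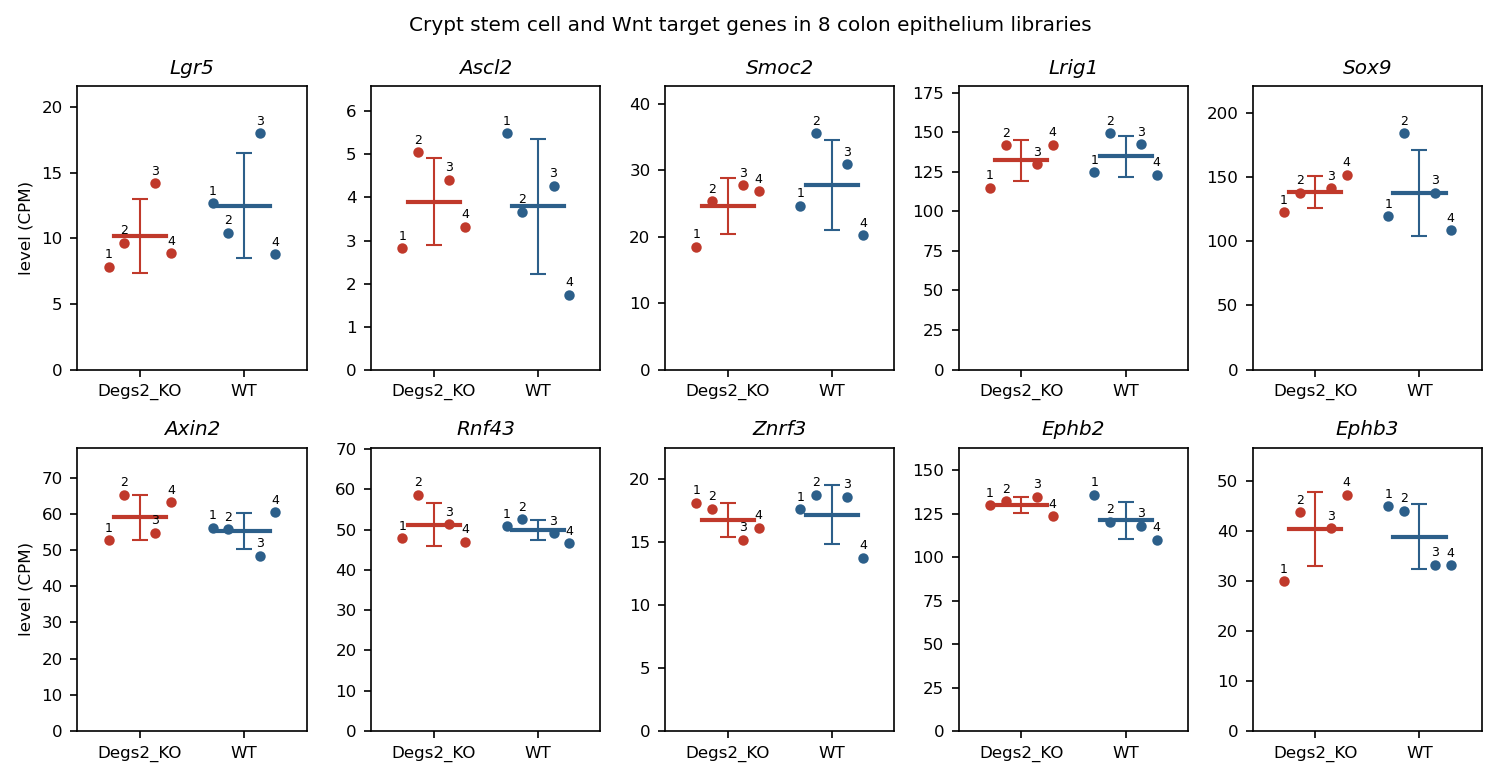
Level in CPM (TMM-normalized, axes from 0) of each of the 10 genes in every library, Degs2_KO left and WT right; numbers are replicates, thick lines means and error bars SD (n = 4 each). The groups overlap in every panel, and Degs2_KO replicate 1 and WT replicate 4 are often the lowest.

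Of the feedback genes, Axin2, the scaffold of the destruction complex that is itself induced by Wnt signalling (ENSMUSG00000000142, chr11:108920349-108950783, plus strand), had 52.8, 65.3, 54.8 and 63.3 CPM in Degs2_KO and 56.2, 55.8, 48.5 and 60.5 CPM in WT. It was highest in Degs2_KO replicate 2 and lowest in WT replicate 3. It averaged 59.0 ± 6.15 CPM in Degs2_KO and 55.2 ± 5.00 CPM in WT (SD, n = 4 each), a log2 fold change of 0.10 ± 0.10 with a 95% interval of -0.13 to 0.32. Axin2 shares 209 exon bases (3.80%) with the antisense gene Gm11670, whose scaled count was at most 2.92 in any library.

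Rnf43, a ubiquitin ligase that removes Frizzled (ENSMUSG00000034177, chr11:87662722-87735539, plus strand), had 48.0, 58.7, 51.3 and 47.0 CPM in Degs2_KO and 50.8, 52.5, 49.2 and 46.7 CPM in WT. Apart from 58.7 CPM in Degs2_KO replicate 2, the libraries of both genotypes were close together, and the log2 fold change was 0.04 ± 0.09 (95% interval -0.15 to 0.24). Znrf3, its paralog with the same role (ENSMUSG00000041961, chr11:5276324-5444847, minus strand), had 18.1, 17.6, 15.2 and 16.1 CPM in Degs2_KO and 17.6, 18.7, 18.6 and 13.7 CPM in WT. WT replicate 4 was the lowest library, and the log2 fold change was -0.04 ± 0.12 (95% interval -0.30 to 0.23). The ratio of Rnf43 to Znrf3 CPM within a library was 3.07 ± 0.350 in Degs2_KO and 2.94 ± 0.322 in WT. An exact 2-sided permutation test over 70 assignments gave p = 0.6 (0.8 adjusted over 2 ratios), where the smallest p this design allows is 0.0286.

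The positioning receptors Ephb2 and Ephb3 keep crypt cells in place by repulsion from cells with ephrin-B ligands, and both are Wnt targets. Ephb2 (ENSMUSG00000028664, chr4:136647539-136835988, minus strand) had 130, 132, 135 and 124 CPM in Degs2_KO and 136, 120, 118 and 110 CPM in WT. All 4 Degs2_KO libraries were above WT replicates 2, 3 and 4 and below WT replicate 1. The log2 fold change was 0.10 ± 0.08 (95% interval -0.08 to 0.28), and its unadjusted p of 0.231 was the smallest of the 10 genes. It was 0.17 without WT replicate 1 and 0.06 without WT replicate 4. Ephb3 (ENSMUSG00000005958, chr16:21204755-21223305, plus strand) had 30.0, 43.8, 40.5 and 47.3 CPM in Degs2_KO and 45.0, 44.1, 33.3 and 33.1 CPM in WT. Each genotype had libraries near both ends of the range, and the log2 fold change was 0.06 ± 0.16 (95% interval -0.31 to 0.43). The ratio of Ephb2 to Ephb3 CPM was 3.32 ± 0.731 in Degs2_KO and 3.16 ± 0.358 in WT (exact 2-sided permutation test, p = 0.8 before and after adjustment).

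Levels of different genes were compared per kb of the principal transcript, as CPM per kb over all 8 libraries. Sox9 was the highest at 33.3 CPM per kb, followed by Lrig1 at 27.0. Axin2 (13.4), Rnf43 (11.7), Ephb2 (11.5), Ephb3 (9.47) and Smoc2 (9.27 CPM per kb) formed a middle range. Znrf3 (2.68), Lgr5 (2.40) and Ascl2 (2.40 CPM per kb) were the lowest. The ranges over libraries did not overlap between the neighbours Lrig1 and Axin2 or between Smoc2 and Znrf3, and overlapped between all other neighbours. Per kb of all annotated exons the gap between Lrig1 and Axin2 held, and Ephb2 lay above Rnf43. Ascl2, at 2.37 CPM per kb on that scale, lay above Znrf3 (2.15) and Lgr5 (1.10), and its range overlapped that of Smoc2. The gap below Smoc2 therefore depends on the length used. Within genotypes, Lgr5 was at 2.15 ± 0.596 CPM per kb in Degs2_KO and 2.65 ± 0.851 in WT, and Axin2 at 13.9 ± 1.44 in Degs2_KO and 13.0 ± 1.17 in WT (SD, n = 4 each).

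The 10 genes differed among themselves in how much they varied between libraries of 1 genotype. This was measured as the biological coefficient of variation (BCV), edgeR's estimate of the relative spread beyond counting error. The median BCV was 0.163 for the 10 genes and 0.187 for all genes tested, with 7 of the 10 below and 3 above that median of all genes. Ascl2 (0.352), Lgr5 (0.271) and Smoc2 (0.208) were the 3 above. Since BCV depends on level, each gene was set beside those within 0.5 log2 CPM of it. In that neighbourhood Lgr5 was at the 87.1 percentile of 1681 genes, Smoc2 at the 86.0 percentile of 2272 genes and Ascl2 at the 84.6 percentile of 1083 genes. Ephb3 (82.1) and Sox9 (78.2) were also high. Axin2 (48.4), Znrf3 (47.7), Lrig1 (42.3), Rnf43 (32.2) and Ephb2 (21.3) were at or below the middle. The highest library was 3.15 times the lowest for Ascl2, 2.29 times for Lgr5 and 1.92 times for Smoc2, but 1.24 times for Ephb2 and 1.26 times for Rnf43.

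**Figure D3:**
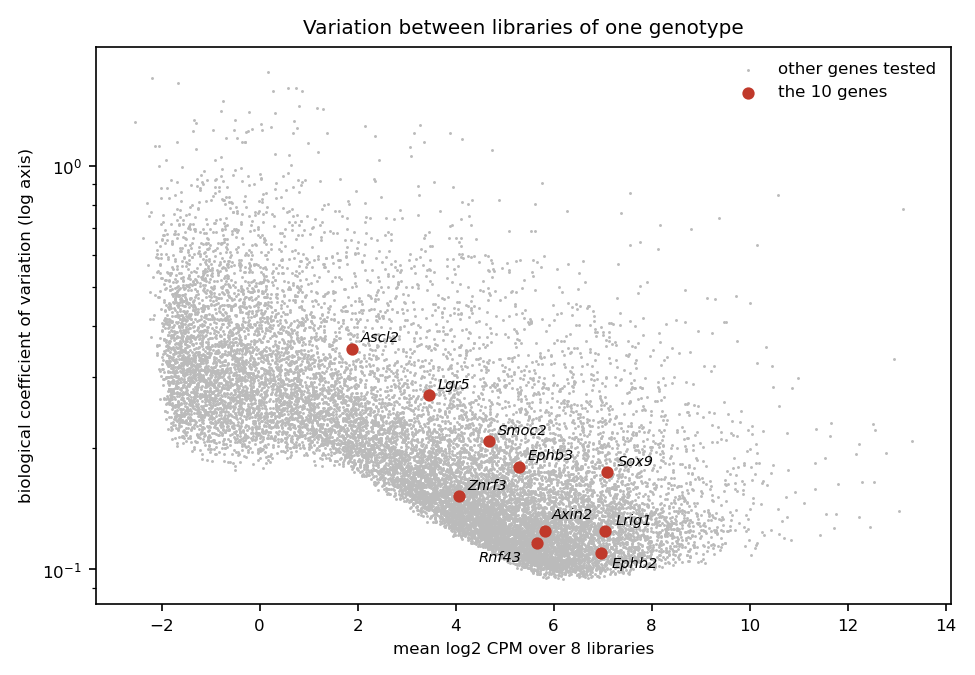
Biological coefficient of variation (log axis) against mean log2 CPM over 8 libraries for all genes tested (grey) and the 10 genes (red). Lgr5, Ascl2 and Smoc2 lie in the upper part of the cloud at their level, and Ephb2, Rnf43 and Axin2 near its lower or middle part.

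By library, WT replicate 4 was the lowest for 5 of the 10 genes, Degs2_KO replicate 1 for 4 and WT replicate 3 for 1. WT replicate 2 was the highest for 4 of them. The median of the 10 centred log2 levels was -0.18, 0.08, 0.05 and 0.02 in Degs2_KO replicates 1 to 4 and 0.04, 0.11, 0.06 and -0.27 in WT replicates 1 to 4. So 1 library of each genotype was low, and the remaining 6 lay close together. The same 2 libraries had the highest summed levels of 8 fibroblast markers. These were 20.1, 8.49, 8.15 and 6.40 CPM in Degs2_KO and 10.4, 11.3, 11.3 and 36.4 CPM in WT. They also had the highest sums of the epithelial markers, 15442 CPM in Degs2_KO replicate 1 and 16923 CPM in WT replicate 4. Endothelial sums did not follow, at 7.58 CPM in Degs2_KO replicate 1 and 8.54 CPM, the lowest of WT, in WT replicate 4. WT replicate 4 also had the lowest sum of 10 cell division markers, but Degs2_KO replicate 1 had the highest, at 843, 773, 686 and 757 CPM in Degs2_KO and 774, 729, 754 and 450 CPM in WT. The part of any of these markers in the members' levels was not tested. Without the 2 libraries highest in fibroblast markers, an alternative chosen after seeing the data, 0 of the 10 genes were called and their median log2 fold change was -0.02.

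The 2 libraries that stood apart on the first principal component, Degs2_KO replicate 3 and WT replicate 1, were then compared with the other 6, gene by gene. Their values lay on the same side outside the range of the other 6 for 34.4% of all genes tested and for 1 of the 10 genes. This held for 8 of 10 other Wnt targets tested and for 11 of 17 other crypt stem cell genes, lists that share some of these genes. It held for 6 of 12 TCF factors and cofactors, 6 of 16 receptors and 5 of 14 destruction complex genes. Among marker lists it held for 2 of 10 cell division, 3 of 10 surface colonocyte, 6 of 6 tuft cell and 5 of 5 distal colon position markers. No test was made of these shares, since the libraries were picked for standing apart. The other Wnt targets counted did not share a direction, and some of them averaged under 1 CPM. Myc was lower in the 2 libraries, at 42.0 CPM in Degs2_KO replicate 3 and 43.9 CPM in WT replicate 1 against 44.3 to 62.9 CPM. Among the 10 genes the 1 was Ephb2. It was at 135 CPM in Degs2_KO replicate 3 and 136 CPM in WT replicate 1 against at most 132 CPM in the others. Cd44, a Wnt target that binds hyaluronan, was at 87.3 CPM in that Degs2_KO library and 72.5 CPM in that WT library, against 22.4 to 41.1 CPM in the other 6. Msi1, an RNA-binding protein of stem cells, was at 3.93 CPM in Degs2_KO replicate 3 and 3.04 CPM in WT replicate 1, against 0.71 to 1.31 CPM. The TCF factor Tcf7l1 was at 18.4 CPM in Degs2_KO replicate 3 and 24.5 CPM in WT replicate 1, against 45.0 to 77.8 CPM. These 3 genes were chosen after their values were seen. Lgr5, at 14.2 CPM in Degs2_KO replicate 3 and 12.7 CPM in WT replicate 1, lay inside the range of the other 6, 7.85 to 18.0 CPM. Without both libraries 0 of the 10 genes were called, and their median log2 fold change was 0.04. Lgr5 was then at -0.49, Ascl2 at 0.22, Smoc2 at -0.29, Lrig1 at -0.05 and Sox9 at -0.06. Of the feedback genes Axin2 was at 0.14, Rnf43 at 0.06 and Znrf3 at 0.03, and of the receptors Ephb2 at 0.15 and Ephb3 at 0.14.

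**Figure D4:**
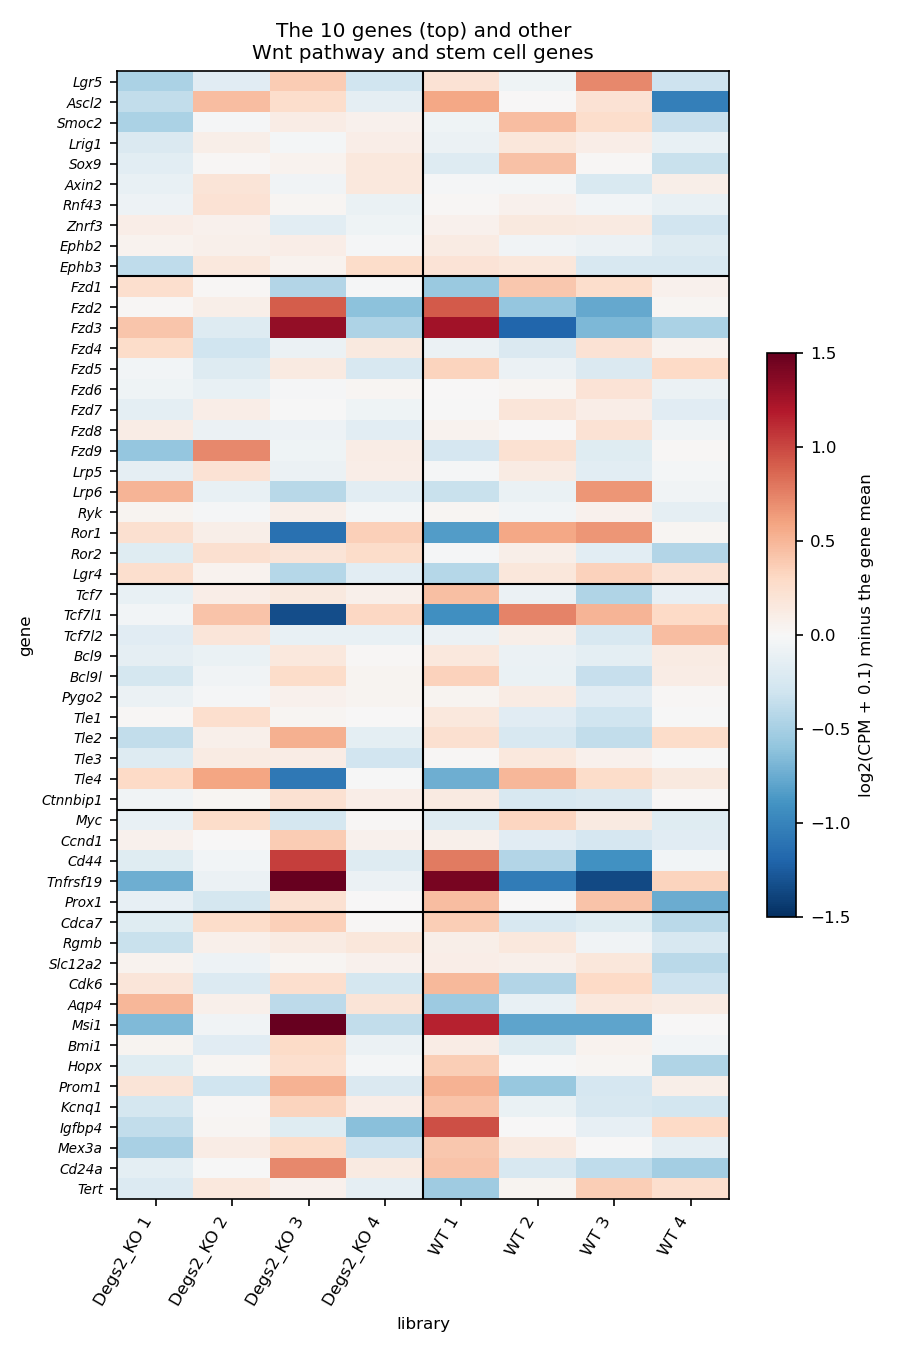
Centred log2(CPM + 0.1) in each library (columns, Degs2_KO left, WT right) for 55 genes, the 10 genes in the top block and below it genes of the receptor, TCF, other Wnt target and other stem cell lists with a mean of at least 1 CPM. Colours end at 1.5; Degs2_KO replicate 3 and WT replicate 1 share strong colours in Fzd3, Cd44, Tnfrsf19, Msi1 and Tcf7l1 but pale ones in most of the 10 genes.

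The genes whose pattern over the 8 libraries was most like that of Lgr5 were taken from 13245 genes with a mean of at least 1 CPM, by the mean absolute difference of centred log2 CPM. They were St18, a zinc finger transcription factor, at a difference of 0.08, then Macrod1, an ADP-ribose hydrolase, and Nme4, a nucleoside diphosphate kinase, at 0.15 each, with 2 gene models that have no given name. Among the other 9 genes the nearest to Lgr5 was Smoc2, at a difference of 0.26 and rank 944, and the farthest Axin2, at 0.40 and rank 9645. Ascl2 had rank 5475. The measure takes in how strongly a gene varied as well as its pattern, so these ranks do not order the genes by pattern alone. The points share 8 libraries and their depth.

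The rest of the pathway was described through 9 lists with 126 genes, of which 89 passed the filter on low counts. By edgeR 0 of these 89 were called, and 42 were higher and 47 lower in Degs2_KO by their estimate. An unadjusted p under 0.05 was found for 4, beside 1.13% of all genes. That background is below what a threshold of 0.05 gives when no gene differs, and it was 782 genes without WT replicate 1. The lists were also chosen with earlier results known, so the 4 are not read as an excess. Those 4 were Fzd10, Ccnd1, Igfbp4 and Erbb3. Without Degs2_KO replicate 3 and WT replicate 1 the unadjusted p was 0.0129 for Fzd10, 0.00929 for Ccnd1, 0.161 for Igfbp4 and 0.0236 for Erbb3, where 650 of all genes were under 0.05. With all 8 libraries every adjusted p was 0.9996 or more by edgeR.

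Of 21 Wnt ligands and secretion factors, 16 were below 1 CPM in every library and 5 of them were listed at 0. Of the 6 tested, 2 were higher and 4 lower by their estimate (median log2 fold change -0.15). Wls, the carrier that Wnt proteins need for secretion, was at 174 ± 10.1 CPM in Degs2_KO and 164 ± 9.17 CPM in WT (log2 fold change 0.08 ± 0.07). Wnt6, a Wnt ligand, was near the floor, at 0.251 CPM in Degs2_KO and 0.406 CPM in WT (-0.69 ± 0.54). Of 15 R-spondins and secreted inhibitors, 14 were below 1 CPM everywhere. The 2 tested, the Wnt-binding inhibitors Sfrp5 (-0.08 ± 0.72) and Wif1 (-0.42 ± 0.73), were near the floor.

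Of the receptors 16 of 17 were tested, 8 higher and 8 lower. Their median log2 fold change was -0.02. Fzd10, a Frizzled receptor, was at 0.911 ± 0.329 CPM in Degs2_KO and 0.467 ± 0.192 CPM in WT, a log2 fold change of 0.96 ± 0.37 with an unadjusted p of 0.0300. With each library left out in turn that p lay between 0.00787 and 0.0908. Fzd10 was near the floor, at 0.310 to 1.26 CPM over the libraries, and did not pass a stricter filter on low counts. Ror2, a Wnt5a receptor, had 0.26 ± 0.15. Lgr4, the paralog of Lgr5 for R-spondins, was at 223 to 357 CPM in Degs2_KO and 223 to 382 CPM in WT, and Lgr6 was at most 0.048 CPM in any library. The 14 genes of the destruction complex and Dishevelled lay between -0.09 and 0.05 in log2 fold change, 6 higher and 8 lower, with a median of -0.01. Axin1, the constitutive counterpart of Axin2, had 0.05 ± 0.06 and Dvl1, a Dishevelled protein, -0.05 ± 0.07. Of the 12 TCF factors and nuclear cofactors tested, 4 were higher and 8 lower, with a median of -0.02. Tle1, a co-repressor, and Ctnnbip1, an inhibitor of beta-catenin binding to TCF, both had 0.15 ± 0.11.

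Of the 10 other Wnt target genes tested, out of 16, the estimate was higher for 7 and lower for 3 (median log2 fold change 0.20). Ccnd1, the G1 cyclin D1, was at 109 ± 13.6 CPM in Degs2_KO and 90.9 ± 9.05 CPM in WT (SD, n = 4 each), a log2 fold change of 0.26 ± 0.11. Its unadjusted p was 0.0378, and 0.0121 to 0.101 with each library left out in turn. Cd44 had 0.28 ± 0.40, and this was 0.69 without WT replicate 1 and -0.12 without Degs2_KO replicate 3. All 17 other crypt stem cell genes were tested, 12 higher and 5 lower, with a median of 0.04. Igfbp4, an IGF-binding protein, was at 1.76 ± 0.352 CPM in Degs2_KO and 2.75 ± 1.05 CPM in WT (-0.64 ± 0.28, unadjusted p = 0.0477). WT replicate 1 held 4.26 CPM of it, and without that library the log2 fold change was -0.35 with an unadjusted p of 0.158. Cd24a, a surface glycoprotein, had 0.34 ± 0.25 (unadjusted p = 0.205), and without Degs2_KO replicate 3 and WT replicate 1 it had 0.37 (unadjusted p = 0.0129).

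Among the 5 tested partners of Ephb2 and Ephb3, the other EphB receptors and B-type ephrins, 1 was higher and 4 lower (median log2 fold change -0.06). The ligand Efnb2 was at 176 ± 16.7 CPM in Degs2_KO and 187 ± 31.8 CPM in WT (-0.09 ± 0.13), and Efnb3 had 0.24 ± 0.21. The ErbB receptors, which Lrig1 acts on, and their ligands were listed with the Lrig paralogs. Of 11 tested, 5 were higher and 6 lower, with a median of -0.08. Erbb3 was at 375 ± 21.5 CPM in Degs2_KO and 448 ± 62.2 CPM in WT (-0.26 ± 0.11, unadjusted p = 0.0441). WT replicate 4 held 536 CPM of it, and without that library the log2 fold change was -0.16 with an unadjusted p of 0.107. Erbb2 had -0.22 ± 0.12.

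**Figure D5:**
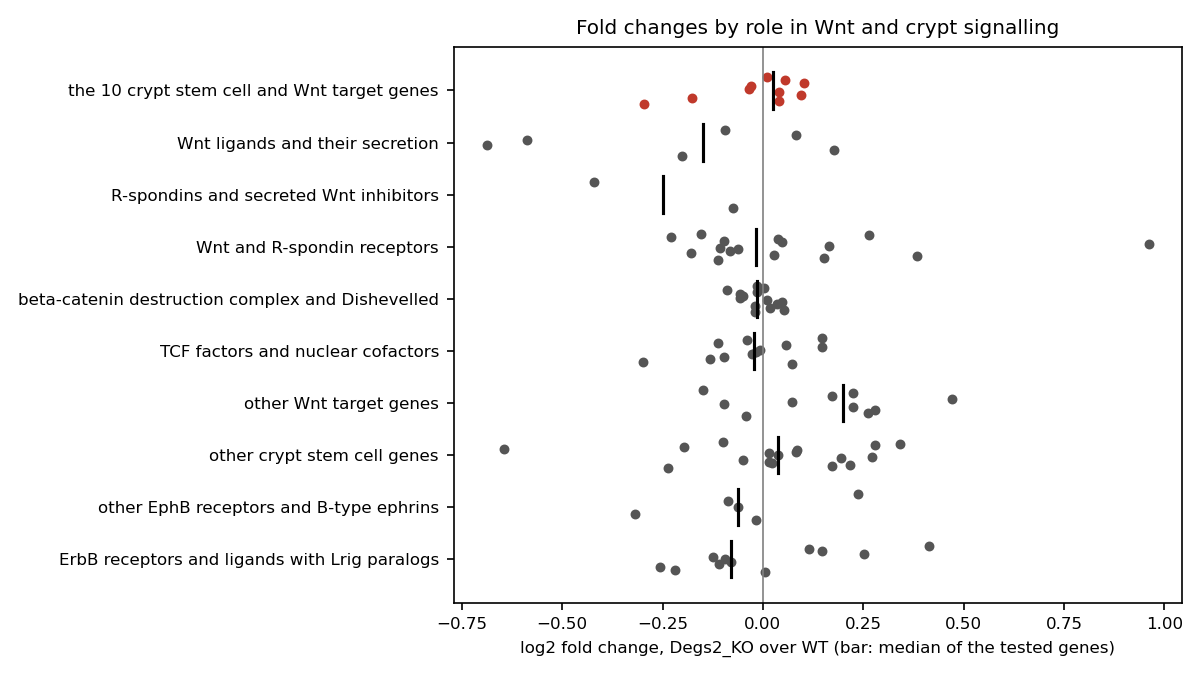
Log2 fold change, Degs2_KO over WT, of every tested gene in the 10 crypt stem cell and Wnt target genes (red) and in 9 lists of related genes (grey), with the median of each list as a bar. The list medians lie between -0.25 and 0.20, and no gene passed edgeR's adjusted threshold.

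Of the 14 lists of cell type and position markers, the epithelial one included, edgeR called 0 genes. The 8 markers of goblet and deep crypt secretory cells were all higher by their estimate (median log2 fold change 0.23), with sums of 5958 to 6807 CPM in Degs2_KO and 4829 to 5950 CPM in WT. The 10 cell division markers had 9 higher and 1 lower (median 0.24), the 6 tuft cell markers 6 higher (0.30), and the 10 surface colonocyte markers 2 higher and 8 lower (-0.10). Among all genes tested 47.4% were higher. The cell division sum was 450 CPM in WT replicate 4, against 729 to 774 CPM in the other WT libraries and 686 to 843 CPM in Degs2_KO. The 9 epithelial markers had 5 higher and 4 lower (0.03), and the 6 enteroendocrine markers 1 higher and 5 lower (-0.12). Sums of the fibroblast markers were 6.40 to 20.1 CPM in Degs2_KO and 10.4 to 36.4 CPM in WT, with 1 of 5 tested genes higher (-0.74). Sums of the smooth muscle markers were 4.10 to 6.47 CPM in Degs2_KO and 4.03 to 5.80 CPM in WT, and those of the glia markers 0.664 to 1.11 CPM in Degs2_KO and 0.905 to 1.43 CPM in WT. T cell sums were 5.62 to 16.9 CPM in Degs2_KO and 3.34 to 19.7 CPM in WT, myeloid sums 22.9 to 43.6 CPM in Degs2_KO and 25.3 to 37.1 CPM in WT, and endothelial sums 5.47 to 8.59 CPM in Degs2_KO and 8.54 to 12.7 CPM in WT. Paneth and small intestine sums were 2.11 to 12.2 CPM in Degs2_KO and 2.27 to 19.2 CPM in WT, and those of the distal colon position genes 49.4 to 161 CPM in Degs2_KO and 46.6 to 189 CPM in WT. Their part in the levels of the 10 genes was not tested.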

How the data were processed

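The submitters' processing notes name TopHat2 2.0.10, Cufflinks 2.1.1, Cuffdiff, cutadapt 1.9 and mm10, without an order, and the sources used here give neither the annotation nor the use of strand. The authors deposited 1 estimated count and 1 status per gene in each library, per the file headers. These estimated counts are scaled by 1 factor per library (0.871 to 1.31). Division by it gave 43.2 to 46.2 M fragments in Degs2_KO and 32.8 to 49.8 M in WT, with 96.9% to 97.3% of values up to 100 fragments whole within 0.02. Another 24 per-sample columns were not used.

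Estimated counts were rounded. In 47 genes a failed status gave 119 values of 0, and these genes were left out; all 10 members had status OK. Genes passed filterByExpr (minimum count 10, minimum total 15), which left 16132. The test was edgeR 4.0.16 (R 4.3.3) with TMM, a quasi-likelihood F test on the group, 2-sided. Benjamini-Hochberg adjustment was at 0.05 over all 16132 genes. The fit was also run on simulated counts, drawn independently for each gene and so without the variation that genes share between libraries. Alternatives were DESeq2 1.42.0 and limma 3.58.1 (voom), other scalings and filters, replicate and ID blocks, and libraries left out. Intervals cover the spread between libraries.

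The 10 members and the 23 companion and marker lists were chosen with earlier results of these data known. The rule for named genes takes the 10 members, Degs2, up to 2 genes with the smallest p per list and the 5 most like Lgr5. Dlk1, Lgr4, Lgr6, Msi1, Myc, Tcf7l1 and Hoxd13 are outside it and were chosen after their values were seen, as was Cd44 for its values by library. Marker lists are given by counts, sums and medians, without the genes that the rule takes from them. Coordinates are from GENCODE M21 on GRCm38 (mm10). Of 233 symbols 1 had no match.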

Additional observations from a re-analysis of the deposited data

How the results depend on the processing

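None of the 10 genes was called in any of 20 alternative settings. Lgr5 (-0.50 to -0.07), Smoc2 (-0.33 to -0.04), Axin2 (0.04 to 0.20) and Ephb2 (0.05 to 0.17) kept the sign of their log2 fold change in all 19 that refit it, and the median over the 10 genes lay between -0.09 and 0.08. DESeq2 called 2 genes, Degs2 (-1.06, adjusted p = 6.96e-07) and Dlk1. In the other settings, by edgeR or limma-voom, the adjusted p of Degs2 lay between 0.422 and 0.99998. Replicate numbers did not pair the libraries: same-number deviations correlated at -0.42, 0.44, -0.56 and -0.10, and the replicate block gave 0 calls and 99 genes at an unadjusted p under 0.05. The other 6 genes, all with estimates near 0, changed sign in some of the 19 settings, though not with the replicate block. The block on pairs of close ID numbers left out Degs2_KO replicate 2 and WT replicate 4, which had no pair. In that fit Ascl2 was -0.35, Rnf43 -0.061, Ephb3 -0.067, Sox9 -0.067, Sfrp5 0.37 and Efnb2 0.0034. Smoc2 reached an unadjusted p of 0.0464 there by edgeR. Blocking and the loss of these libraries cannot be told apart in it. Without WT replicate 4 alone and with no block, Ascl2 was -0.20, Ephb3 -0.012 and Sox9 -0.086. Without the 2 libraries apart on the first component Znrf3 was 0.027 and Sox9 -0.057, and without the 2 highest in fibroblast markers Ascl2 was -0.068 and Sox9 -0.029. Sfrp5 was 0.069 with the replicate block and 0.60 by limma-voom. Leaving out single libraries gave Ascl2 -0.20 to 0.28, Rnf43 -0.029 to 0.081, Znrf3 -0.13 to 0.010, Lrig1 -0.071 to 0.041, Ephb3 -0.028 to 0.18, Sox9 -0.086 to 0.18, Sfrp5 -0.48 to 0.21, Wif1 -1.27 to 0.12, Cd44 -0.12 to 0.69 and Efnb2 -0.14 to 0.039. The cause was not tested. Of 338 values of the 18 named companion genes 328 kept their direction.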
